A study of Rattus norvegicus with 12 samples.

Results

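Of the 685 miRNA names in the count tables of this rat series, 100 carry a number of 3000 or more after the prefix miR-, up to miR-7578, and these 100 names are described here. They were chosen by name alone, with any letter, locus or arm suffix allowed, and no measured value entered the choice. MicroRNAs (miRNAs) are short RNAs that the nucleases Drosha and Dicer cut from hairpin transcripts. An Argonaute protein then holds the miRNA, which finds messenger RNAs mainly by pairing through its seed, the bases after the first at its 5′ end. miRNA numbers are given in order of registration, so high numbers mostly stand for miRNAs found by deep sequencing, among them weakly expressed ones and ones that lie opposite an older miRNA on the other DNA strand.

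Small RNA was sequenced from primary cortical neurons of Sprague Dawley rat embryos at embryonic day 17. Every culture was given a lentivirus on day 10 in vitro, with lysis on day 14. The virus expressed a short hairpin RNA without a target (shNTC, the reference), against Stau2 (shStau2) or against Pum2 (shPum2, a further control for effects of any shRNA). The Stau2 product, Staufen2, binds double-stranded RNA, and the Pum2 product, a Pumilio protein, binds motifs in messenger RNAs. Each group had 4 libraries, called biological replicates in the labels and written below with their replicate number, as in shNTC 1. The embryos pooled per culture and the share of cells that took up virus are not given in the sources used here, and no table here holds the Stau2 or Pum2 messenger RNA.

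Library totals ran from 3836349 to 5415763 counts, of which 3804798 to 5378626 were of miRNAs. With counting error alone, a count of 0 allows up to 3 counts. On the miRNA counts, 3 counts came to between 0.558 and 0.788 CPM (counts per 1000000 miRNA counts of the library). For zeros that fill whole sets of libraries, described below, this limit need not hold. Of the cell type marker lists, the neuronal one had the highest sum. The 5 neuronal markers found in the tables, of 6 listed, summed to 269000 to 318000 CPM in shNTC, 287000 to 326000 in shStau2 and 274000 to 332000 in shPum2. The 4 names listed as markers of astrocytes or dividing glia were miR-21-5p, miR-23a-3p, miR-27a-3p and miR-143-3p. They summed to 4610 to 7430 CPM in shNTC, 2670 to 3940 in shStau2 and 3250 to 5350 in shPum2, so all shStau2 libraries lay below all shNTC libraries. Their single levels are not given here, so the sum does not show which of the 4 was lower. The 2 vessel markers summed to 435 to 517 CPM in shNTC, 382 to 422 in shStau2 and 421 to 472 in shPum2. Here too all shStau2 libraries lay below all shNTC libraries. Among single miRNAs, shStau2 and shNTC did not overlap for 9.55% of all 628 tested. The 2 oligodendrocyte markers summed to 213 to 399 CPM over all libraries. The 6 blood or microglia markers found in the tables summed to 129 to 384 CPM, with miR-142-5p and miR-451-5p listed at 0 in some libraries. Levels are shares of a library, and fewer cells of a type cannot be told apart from less RNA per cell.

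The sequences below show the late-numbered miRNAs that passed a test, some of the abundant ones, the rare miR-3556a for its miR-29 partner, miR-3572 for its last letters, and the older miRNAs to which some of them are complementary. All are mature sequences from RefSeq (GRCr8), written 5′ to 3′ with the seed, bases 2 to 8, in capitals. Each of the first 7 pairs lists a late-numbered miRNA and then its complementary partner.
miR-3588: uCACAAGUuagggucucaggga
miR-125b-5p: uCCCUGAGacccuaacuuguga
miR-3596a: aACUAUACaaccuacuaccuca
let-7a-5p: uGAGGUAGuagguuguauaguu
miR-3596d: cUAUACAAucuacuaccuca
let-7f-5p: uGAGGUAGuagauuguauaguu
miR-3587: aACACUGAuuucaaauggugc
miR-29b-3p: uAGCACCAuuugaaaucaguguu
miR-3556b: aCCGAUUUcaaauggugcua
miR-29c-3p: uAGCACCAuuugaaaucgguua
miR-3556a: cGAUUUCAgauggugcua
miR-29a-3p: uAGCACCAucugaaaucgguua
miR-3543: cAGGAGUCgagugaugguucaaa
miR-434-3p: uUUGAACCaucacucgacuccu
miR-3099: uAGGCUAGaaagagguugggga
miR-3068-5p: uUGGAGUUcaugcaaguucuaacca
miR-3068-3p: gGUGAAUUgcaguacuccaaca
miR-3542: aAGGCUCUucuuuccuugcag
miR-3572: uUACACUUgcccuuuuuuccccag

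RefSeq held a mature sequence for 89 of the 100 names, of 18 to 25 nucleotides with a median of 22. The 89 sequences had 89 distinct seeds, so no seed was shared among them. Only 4 of the 89 shared a seed with another name of the tables. These were miR-3065-5p (with miR-7a-1-3p), miR-3084c-3p (with miR-192-3p), miR-3573-5p (with miR-423-5p) and miR-3596d (with let-7b-3p, let-7f-1-3p and miR-98-3p). The pairs printed above carry different capitals within each pair, also where, as for miR-3588 and miR-125b-5p, the sequences are exact complements over all 22 nucleotides.

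Late-numbered miRNAs were scarce in these neurons. Their summed counts were 1.25 ± 0.046% of all miRNA counts with shNTC, 1.32 ± 0.049% with shStau2 and 1.26 ± 0.042% with shPum2 (SD, n = 4 each). The median name had a mean of 24.9 counts per library, against 172 for the other miRNA names. Of the 100 names, 24 had a mean under 10 counts, 51 from 10 to under 100, 19 from 100 to under 1000, and 6 had 1000 or more. These 6 held 84.7% of all late-numbered counts, from 80.3% to 87.3% by library, and miR-3588 alone held 35.9%. By number, the 59 names from 3500 to below 4000 held 78.1% of the counts and the 17 names from 3000 to below 3500 held 19.7%, most of it miR-3099 and the miR-3068 arms. The 22 names numbered 6000 and above held 1.15%, and the most abundant of them, miR-6216, had a mean of 202 counts.

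The precision followed the depth. Among names present in every library, the median coefficient of variation within groups was 34.2% for the 13 late-numbered names under 10 counts and 23.4% for the 50 names from 10 to under 100, close to the counting error at those depths (33.0% and 20.4%). It was 17.2% for 19 names from 100 to under 1000 and 8.79% for the 6 most abundant. Both lay well above the counting error at those depths (6.3% and 1.24%). The other miRNA names had medians of 41.5%, 21.9%, 12.9% and 9.71% in the same 4 ranges of depth, so the late-numbered names were lower in the first and last range and higher in the middle ones.

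The most abundant name, miR-3588, had levels in TMM-scaled CPM of 4350, 3810, 4740 and 4290 in shNTC 1 to 4, 4760, 4600, 5430 and 5430 in shStau2, and 4480, 4240, 4940 and 3890 in shPum2. The values of shStau2 1, 3 and 4 lay above every shNTC value, that of shStau2 2 did not, and the groups overlapped. It was followed by miR-3596a, complementary to let-7a-5p, at 2630 ± 264, 2760 ± 288 and 2640 ± 125 CPM in shNTC, shStau2 and shPum2 (SD, n = 4). The third was miR-3099, a miRNA described in embryonic mouse brain, which has no complementary partner here, at 2240, 1630, 1830 and 1920 CPM in shNTC, 2370, 2190, 2180 and 2750 in shStau2, and 1920, 2120, 1570 and 2250 in shPum2. The shStau2 values of miR-3099 overlapped those of shNTC only through shNTC 1. The remaining let-7 complements stood at 840 (miR-3596d), 333 (miR-3596c) and 288 CPM (miR-3596b) in shNTC, in groups that overlapped in every comparison. At the edge of the naming rule, the lowest-numbered name, miR-3064-3p, stood at 1.40, 1.93 and 1.60 CPM in the 3 groups, and the highest-numbered name outside it, miR-2985, at 3.42, 4.18 and 2.39 CPM.

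**Figure D1:**
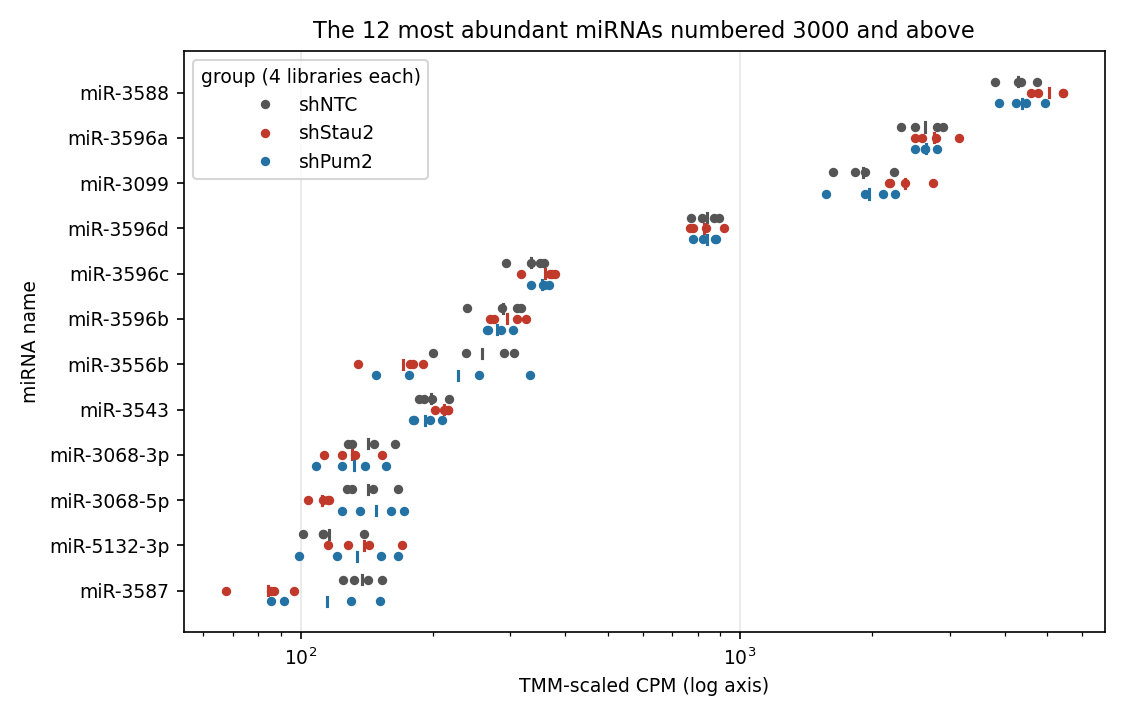
TMM-scaled CPM on a log axis for the 12 most abundant late-numbered miRNAs, with 4 libraries per group as points and group means as ticks. Single libraries run from the 67.4 CPM of miR-3587 in shStau2 4 to the 5430 CPM of miR-3588 in shStau2 3 and 4, and for most names the 3 groups overlap.

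Some low names were listed at 0 in whole sets of libraries. By which of all 805 small RNA names they listed at 0, the 12 libraries fell into 3 sets of 4, a division noticed in the data and not given in the labels. Libraries of the same set differed in the zero status of at most 1 name, and libraries of different sets in 52 to 58 names. The first set held shNTC 1, shStau2 1, shStau2 2 and shPum2 1. The second held shNTC 2, shNTC 3, shPum2 2 and shPum2 3 and no shStau2 library, and the third held shNTC 4, shStau2 3, shStau2 4 and shPum2 4.

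The pattern touched 12 late-numbered names, each at 0 in all 4 libraries of a set or of 2 sets and above 0 in all 4 of another. Where such a name was above 0, its counts summed to at least 21 over the set. The names miR-3084a-5p, miR-3558-3p and miR-6323 had counts only in the first set, miR-3590-3p only in the second, and miR-3580-5p and miR-7578 only in the third. The names miR-6320, miR-6324 and miR-6330 were at 0 in the second set alone, which has no shStau2 library, so they were above 0 in 4 of 4 shStau2 libraries and in 2 of 4 libraries of each other group. For miR-3561-5p, miR-3576 and miR-6327 the zeros lay in the third set alone. A 0 in these 12 names therefore goes with the set rather than the group, and no fold is given for them. Of the 12, only miR-6324 and miR-6327 passed the filter on low counts, and miR-6327 had 198 counts in shStau2 1 against 29 or fewer in every other library.

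**Figure D2:**
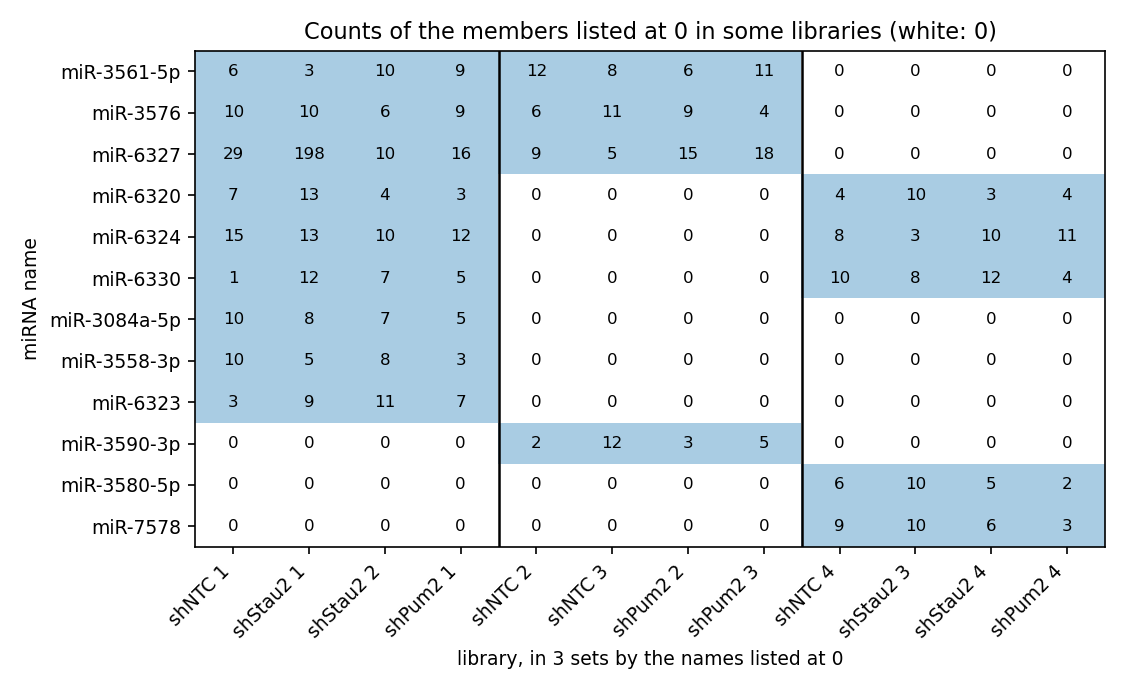
Counts of the 12 late-numbered miRNAs that are listed at 0 in some libraries, with libraries in columns ordered by set and white cells for 0. The zeros fill whole sets of 4 libraries, and the only count above 29 is the 198 of miR-6327 in shStau2 1.

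Many late-numbered miRNAs were complements of older ones. For 30 of the 89 with a sequence (33.7%), a stretch of at least 16 nucleotides was the exact complement of another RefSeq miRNA, and in 18 of them the whole sequence was. All 30 overlapped that partner on the opposite strand of the genome. For the other miRNA names the search was narrower, because late-numbered names were not allowed as partners. It found a partner for 28 of 524 (5.34%). Older miRNAs whose only partner is late-numbered are not among these 28, so 33.7% and 5.34% are not like for like. The 30 names held 75.2% of the late-numbered counts, from 72.1% to 80.0% by library. The limit of 16 nucleotides was set with the sequences in view. No source used here gives the strand setting of the authors' counting, so reads from such a name and its partner cannot be told apart with certainty, and the levels of all 30 names are uncertain to that extent.

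The partner was in the tables for 28 of the 30, and it was the more abundant in 26 of the 28. The exceptions were miR-3065-3p, opposite miR-338-5p, and miR-3571, opposite the muscle miRNA miR-1-3p, all of them low. Among the 12 pairs whose late-numbered name had a mean of at least 100 counts, the name came to between 2.44% and 123% of its partner. The lowest share belonged to miR-3596d with let-7f-5p (2.44 to 2.77%) and the highest to miR-3589 with miR-505-3p (67.0 to 123%). The share was therefore not a common constant: it differed between pairs by far more than between libraries.

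How steady the share was over the libraries differed between pairs. In the 12 deeper pairs the highest share was 1.11 to 1.87 times the lowest, and over all 26 pairs tested, many with few counts, up to 6.0 times, in miR-3575 with miR-200c-5p. The steadiest were the most abundant. As a percent of miR-125b-5p, the brain-rich relative of the worm lin-4 miRNA, miR-3588 stood at 3.39, 3.44, 3.47 and 3.47 in shNTC, 3.28, 3.32, 3.47 and 3.59 in shStau2, and 3.56, 3.29, 3.65 and 3.44 in shPum2. The highest share was 1.11 times the lowest, while the level of miR-3588 itself varied 1.43-fold over the libraries and that of miR-125b-5p 1.41-fold. The let-7 complements had narrow ranges too: miR-3596c stood at 3.58 to 3.98% of let-7e-5p, miR-3596b at 4.74 to 5.48% of let-7d-5p and miR-3596a at 7.90 to 9.30% of let-7a-5p. In the imprinted cluster on chromosome 6, miR-3543, which lies within Rtl1, stood at 4.17 to 5.02% of miR-434-3p.

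The widest ranges of the 12 were those of miR-3587 (1.87), miR-3589 (1.84) and miR-3556b (1.69). For miR-3589 the share varied more than the level of the name itself (1.49-fold) or of its partner miR-505-3p (1.66-fold). As a percent of miR-29b-3p, miR-3587 stood at 9.54, 9.17, 10.0 and 8.67 in shNTC, 12.2, 12.1, 13.4 and 13.4 in shStau2, and 8.88, 10.4, 8.69 and 7.15 in shPum2. All 4 shStau2 shares lay above all 8 others. Against shNTC the exact permutation test gave two-sided p = 0.0286, the smallest that 4 against 4 libraries allow. The adjusted p was 0.446 over the 78 tests of 26 pairs in 3 comparisons. The same p came for miR-3587 against shPum2, and for miR-3556b with miR-29c-3p in shStau2 against shNTC. It also came for the rarer miR-3065-5p with miR-338-3p, in shPum2 against each other group. There the shPum2 shares, 4.40 to 5.66%, lay below all 8 others. With that smallest p, no pair could by itself pass an adjustment over 78 tests, so the adjusted values say nothing for or against a difference in the shares. As a percent of miR-29c-3p, to which 15 of its nucleotides are complementary, miR-3587 went the other way, at 11.8 ± 0.933 in shNTC and 8.24 ± 0.79 in shStau2 (SD, n = 4). The name miR-3556b, complementary over 20 nucleotides to miR-29c-3p and over 17 to miR-29b-3p, stood at 22.0 ± 3.91% of miR-29c-3p in shNTC and 16.7 ± 0.831% in shStau2. The third complement, miR-3556a, was far rarer, at 0.0562 to 0.144% of miR-29a-3p.

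**Figure D3:**
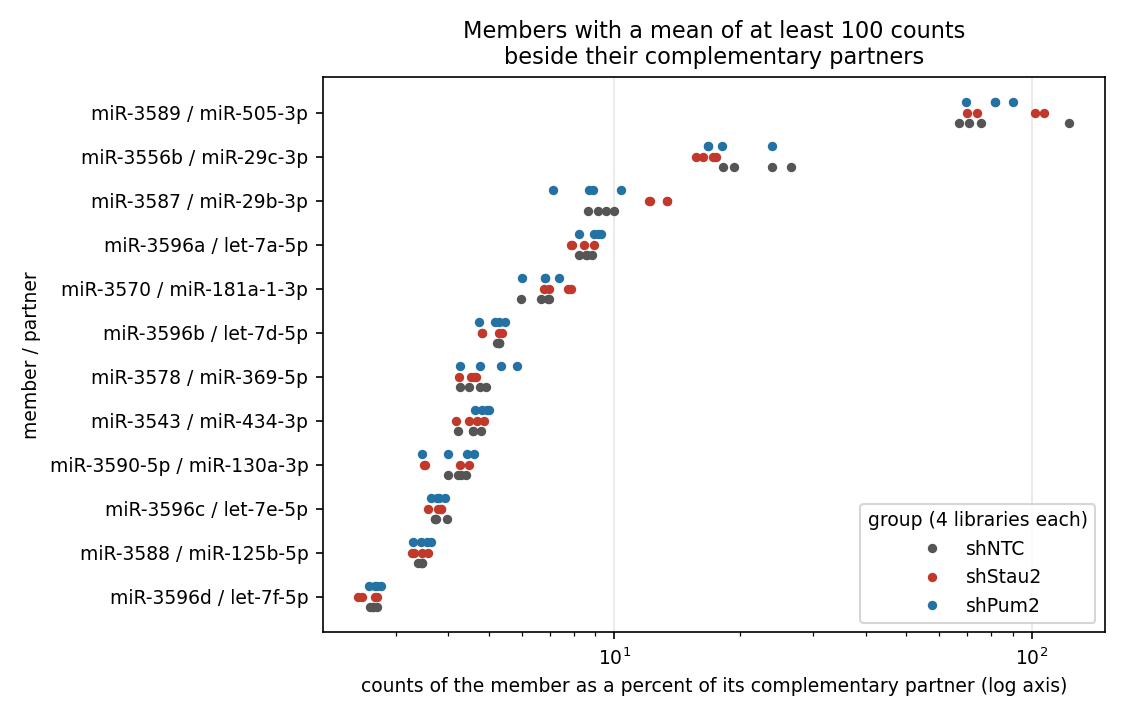
Counts of a late-numbered miRNA as a percent of its complementary partner, on a log axis, for the 12 pairs with a mean of at least 100 counts, with 1 point per library. The points run from 2.44% for miR-3596d to 123% for miR-3589, lie closest together for miR-3588 and miR-3596c, and the shStau2 points of miR-3587 (12.1 to 13.4%) lie to the right of the others.

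The main question of the series was what depletion of Stau2 changed against shNTC. In the fit by group alone, 0 of the 86 late-numbered names tested passed edgeR's quasi-likelihood test at a Benjamini-Hochberg adjusted p of 0.05, against 0.318% of all 628 miRNAs tested. The smallest adjusted p was 0.0907, and 8 names had an unadjusted p under 0.05. DESeq2 by group alone called 1 name, miR-3587. Libraries with the same replicate number deviated together, and with that number as a block 5 of 86 names passed (5.81%, against 6.21% of all 628 miRNAs): 2 rose (2.39% of all miRNAs did) and 3 fell (3.82%). The share of late-numbered names called was thus near that of all miRNAs. The calls depended on the replicates kept and on the fit. Without number 4, 0 of the 5 remained past the threshold. There were 7 fits with the block: this one, DESeq2, library totals and each number left out. Of these 7, miR-3587 and miR-3556b passed in 6 each, miR-3068-5p in 4, miR-3099 in 3 and miR-3588 in 2.

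The names that fell included 2 complements of the miR-29 family, miRNAs that increase as neurons mature. The levels of miR-3587 were 142, 153, 132 and 125 CPM in shNTC 1 to 4, 96.6, 85.6, 86.7 and 67.4 in shStau2, and 151, 85.5, 130 and 91.7 in shPum2. All shStau2 values lay below all shNTC values, and shPum2 spanned the gap. With the block, miR-3587 fell by 0.73 on the log2 scale (SE 0.12, edgeR adjusted p = 0.00119), and in 4 of 4 pairs of the same number. Over the 7 fits with the block, that one included, its adjusted p lay between 3.83e-06 and 0.0611, the last without number 4. Its partner miR-29b-3p fell by 1.18 (SE 0.20, edgeR adjusted p = 0.0123), from 1480 ± 142 to 662 ± 121 CPM (SD, n = 4). The gene lies at chr4:60618342-60618362 (GRCr8, plus strand), opposite the miR-29b gene and outside the bounds of other genes.

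The levels of miR-3556b were 290, 306, 237 and 200 CPM in shNTC, 180, 177, 190 and 135 in shStau2, and 332, 176, 254 and 148 in shPum2. Again all shStau2 values lay below all shNTC values, while shPum2 reached above and below both. With the block, miR-3556b fell by 0.59 (SE 0.14, edgeR adjusted p = 0.0239, between 0.000857 and 0.166 over the 7 fits with the block). The partner, miR-29c-3p, stood at -0.21 on that scale and did not pass (edgeR adjusted p = 0.25). The log2 fold changes of both complements lay between those of miR-29b-3p and miR-29c-3p. That range is wide and also holds the value of miR-3068-5p, which has no complementary partner (-0.35). Each of the 2 complements is complementary over its whole length to the partner named for it and in part to the other. Whether this bears on their levels was not tested. The rare miR-3556a, at chr4:60617972-60617989, went from 6.22 ± 1.49 to 3.99 ± 0.655 CPM (SD, n = 4), or -0.63 on the log2 scale with the block (SE 0.23, edgeR adjusted p = 0.126), and did not pass. The markers of astrocytes or dividing glia and those of vessels were lower in the same libraries, and their part in these values was not tested.

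The third name that fell, miR-3068-5p, has no complementary partner. It stood at 131, 127, 146 and 166 CPM in shNTC, 104, 112, 115 and 116 in shStau2, and 136, 124, 172 and 160 in shPum2. The shStau2 values lay below all 8 others. With the block it fell by 0.35 against shNTC (SE 0.09, edgeR adjusted p = 0.0313) and by 0.40 against shPum2 (SE 0.09, edgeR adjusted p = 0.0197), so it was the late-numbered name that passed against both. It passed in 4 of the 7 fits with the block against shNTC, that one included, with adjusted p from 0.0113 to 0.193. The RefSeq table places it at chr6:112811918-112811942 (GRCr8, minus strand), inside the bounds of Alkbh1 and of Snora58, a small nucleolar RNA gene.

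The other arm of that hairpin was measured at the same level and did not pass. The levels of miR-3068-3p were 128, 164, 147 and 131 CPM in shNTC, 124, 133, 153 and 113 in shStau2, and 124, 140, 156 and 108 in shPum2, and its log2 fold change against shNTC was -0.12 with the block (edgeR adjusted p = 0.459). The ratio of the 5p to the 3p arm was 1.02 ± 0.20 with shNTC, 0.862 ± 0.111 with shStau2 and 1.14 ± 0.251 with shPum2 (SD, n = 4 each). For shStau2 against shPum2 the exact permutation p of the ratio was 0.0571 and the adjusted p 0.385. These were the smallest among 27 tests of 9 hairpins with both arms late-numbered. The same values came from miR-3559 for shPum2 against shNTC, and from miR-3593 for shPum2 against shNTC and against shStau2. Here too the smallest possible p of 0.0286 let no hairpin pass the adjustment by itself, so the test leaves undecided whether the arms differ.

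The 2 names that rose were the abundant miR-3588 and miR-3099, whose values by library are given above. With the block, miR-3588 rose by 0.24 (SE 0.07, edgeR adjusted p = 0.0491) and its partner miR-125b-5p by 0.25 (edgeR adjusted p = 0.0147). The partner went from 125000 ± 10800 to 148000 ± 7670 CPM (SD, n = 4). The name miR-3099 rose by 0.31 (SE 0.09, edgeR adjusted p = 0.0492), from 1900 ± 252 to 2370 ± 265 CPM, and lies at chr1:76057109-76057130 (GRCr8, minus strand) outside other genes. Both were higher in 4 of 4 pairs of the same number. Both calls stood at the threshold, and neither passed with library totals in place of TMM scaling, where the 3 names that fell passed and 0 rose. Over the 7 fits with the block the adjusted p of miR-3588 lay between 0.0489 and 0.166, and that of miR-3099 between 0.0248 and 0.28.

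**Figure D4:**
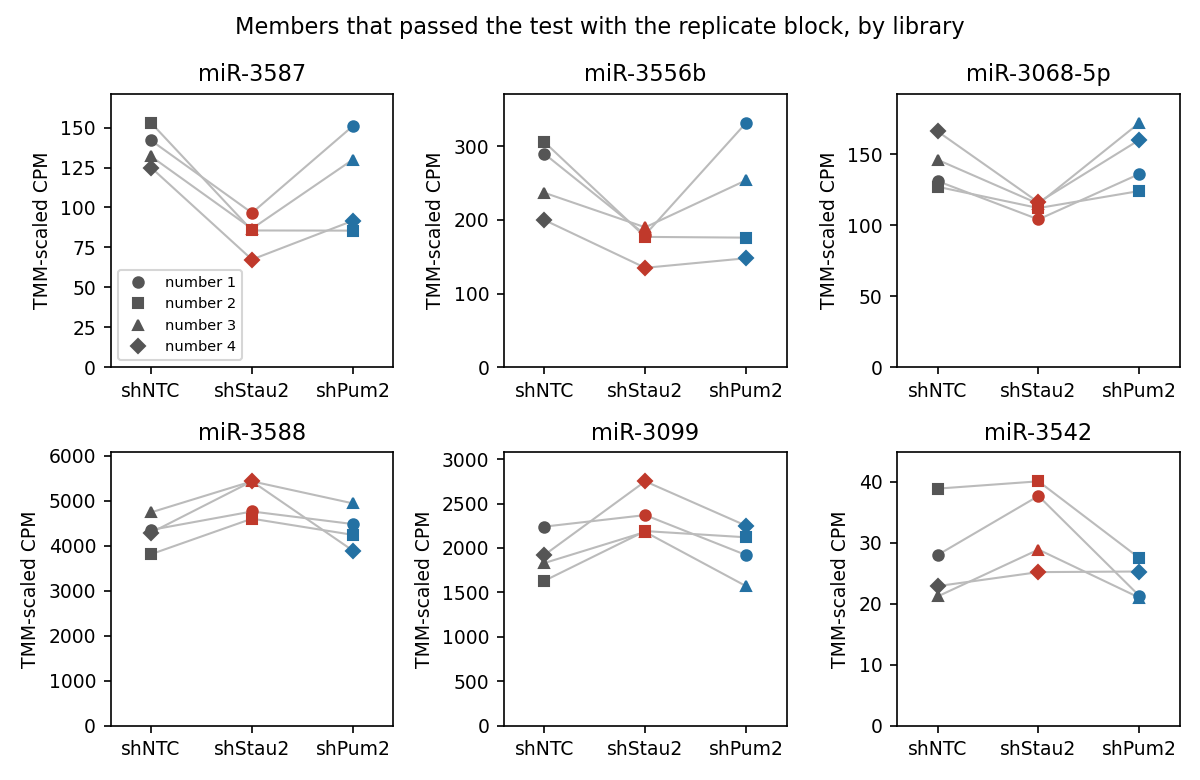
TMM-scaled CPM of the 6 late-numbered miRNAs that passed a test with the replicate block, with lines joining libraries of the same number. miR-3587, miR-3556b and miR-3068-5p are lower in shStau2 than in shNTC at every number, miR-3588 and miR-3099 are higher at every number, and miR-3542 passed only against shPum2.

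Calls fell among names with and without a complementary partner. Among the 28 complementary names tested, 1 rose and 2 fell with the block, and their median log2 fold change was -0.01. Among the 58 others, 1 rose and 1 fell, and their median was 0.17. The difference between these counts was not tested, and of all 628 miRNAs 2.39% rose and 3.82% fell. Over all 628 miRNAs the median was 0.005. Of those 58, 42 had a positive value, and most of them had few counts. Without regard to any model, the 4 shStau2 values lay wholly above or below the 4 shNTC values for 4 of the 86 late-numbered names, 1 higher and 3 lower, against 9.55% of all 628 miRNAs.

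**Figure D5:**
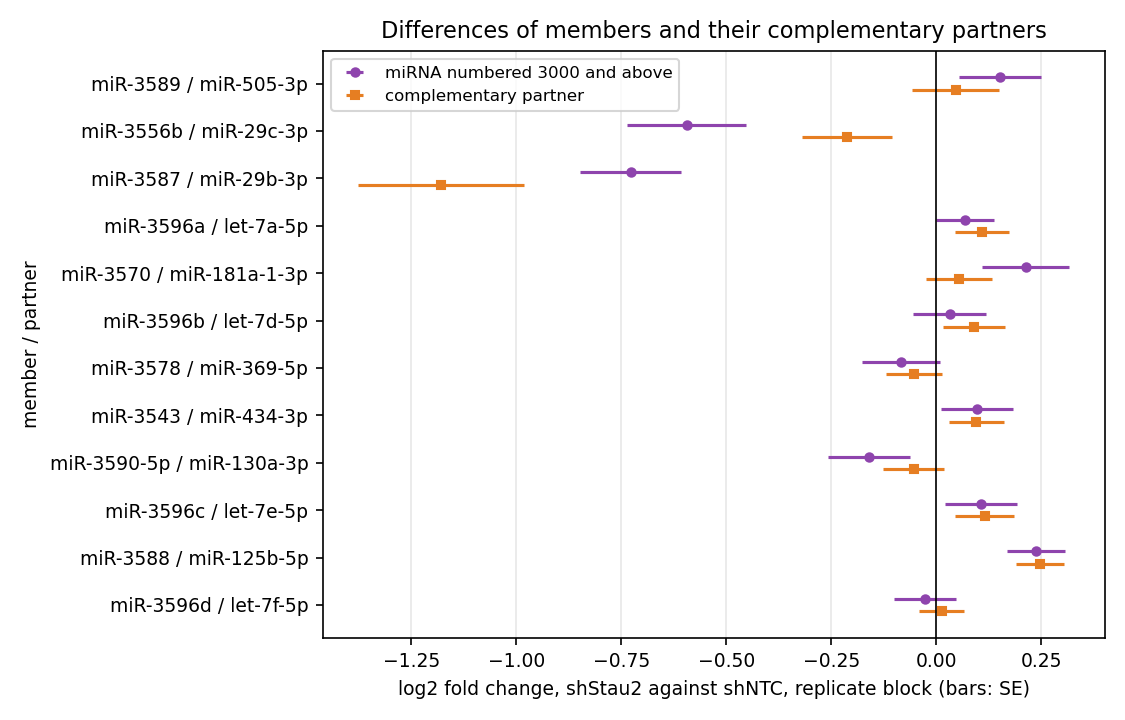
Log2 fold changes of shStau2 against shNTC with the replicate block, with SE as bars, for 12 late-numbered miRNAs and their complementary partners. miR-3588 and miR-125b-5p lie together at 0.24 and 0.25, while miR-3587 (-0.73) and miR-3556b (-0.59) lie between miR-29b-3p (-1.18) and miR-29c-3p (-0.21).

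Neurons with shPum2 served to show what a further active shRNA changed against shNTC. By group alone, 0 of 86 late-numbered names passed edgeR's test, against 0.00% of all 628 miRNAs, with 1 unadjusted p under 0.05 and a smallest adjusted p of 0.982. With the block 0 passed, against 0.159%, with 4 unadjusted p-values under 0.05, and DESeq2 called 0 in both designs. With the block, the smallest adjusted p belonged to miR-3473, inside the bounds of Zranb3, at 28.0, 28.6, 20.4 and 39.2 CPM in shNTC and 32.1, 43.4, 23.9 and 65.9 in shPum2. These groups overlapped, shPum2 was higher in 4 of 4 pairs of the same number, and the log2 fold change of 0.47 did not pass (SE 0.12, edgeR adjusted p = 0.279). This name was picked out after its values were seen. By group alone, the smallest unadjusted p was that of miR-6318, at 7.29, 8.22, 6.66 and 9.42 CPM in shNTC, 6.47, 6.69, 3.11 and 4.11 in shPum2, and 4.99, 4.87, 4.53 and 6.96 in shStau2. Its log2 fold change was -0.64 against shNTC (SE 0.25, edgeR adjusted p = 0.982). The name miR-3559-3p, inside Zdhhc15 on the X chromosome, was the only one whose shPum2 values (4.95 to 6.27 CPM) lay wholly above those of shNTC (3.82 to 4.73), against 1.11% of all miRNAs without overlap. Its shStau2 values, 4.87 to 6.69, also lay above shNTC. It passed in neither comparison, with log2 fold changes of 0.39 (SE 0.19) and 0.42 (SE 0.19).

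Against shPum2, which carries an active shRNA too, shStau2 differed in few late-numbered names. By group alone 0 of 86 passed edgeR's test, against 0.478% of all 628 miRNAs, with 11 unadjusted p-values under 0.05 and a smallest adjusted p of 0.331. With the block 2 passed (2.33%, against 3.98% of all): miR-3542 rose (1.59% of all did) and miR-3068-5p, described above, fell (2.39%). The count depended on single replicate numbers: without number 1 or number 3 it was 0, without number 4 it was 1 and without number 2 it was 6. The share of all miRNAs called in those fits is not set beside these counts, so they are no result about the late-numbered names. Neither miR-3542 nor miR-3068-5p has a complementary partner. The shNTC and shPum2 comparisons use the same shStau2 libraries, so they are not independent of each other.

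The name miR-3542 lies within the RNA helicase gene Ddx41, at chr17:9112796-9112816 (GRCr8, plus strand). Its levels were 37.7, 40.1, 28.9 and 25.2 CPM in shStau2, 21.3, 27.5, 21.0 and 25.3 in shPum2, and 28.0, 38.9, 21.2 and 22.9 in shNTC. The groups overlapped, and shStau2 4 was just below shPum2 4. With the block it rose by 0.46 against shPum2 (SE 0.13, edgeR adjusted p = 0.049, between 0.0344 and 0.336 over the 7 fits with the block). Its log2 fold change against shNTC was 0.26 (edgeR adjusted p = 0.222).

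Among names below the threshold, miR-3572, within Cnot3, a subunit gene of the deadenylase complex, stood at 11.3, 8.35, 11.0 and 9.59 CPM in shStau2 and 7.17, 7.93, 6.44 and 4.32 in shPum2. These groups did not overlap, as for 4 of the 86 names against 4.94% of all 628 miRNAs. Its log2 fold change was 0.65 with the block (SE 0.19, edgeR adjusted p = 0.0624). The name miR-3593-3p had the widest difference among the named, a log2 fold change of 1.06 (SE 0.38, edgeR adjusted p = 0.128) at levels of 3.40, 2.32, 3.02 and 3.12 against 1.16, 2.48, 0.831 and 1.30 CPM, where counts are near the limit.

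Both miR-3542 and miR-3572 end in CAG, letters that close many introns. Mirtrons are miRNAs whose hairpin is a whole short intron, so that the splicing machinery takes the place of Drosha, and their 3′ strand ends at the intron's end. The 3′ letters CAG, read on the miRNA's own strand, closed 5 of the 89 late-numbered sequences (5.62%) and 11 of 524 others (2.10%). The 5 were miR-3542, miR-3572, miR-3574, miR-3583-3p and miR-6325, and against shNTC in shStau2 their log2 fold changes with the block ran from -0.17 to 0.64, with 0 calls. The letters do not show that a name is a mirtron, and this search was made after the values were seen. On a list of 10 miRNAs reported to bypass Drosha or Dicer, 9 were tested and 0 passed in any comparison with or without the block. With the block 6.21%, 0.159% and 3.98% of all miRNAs passed in the 3 comparisons, so a count of 0 among 9 is near the background and is no result about the list. The late-numbered member of that list, miR-3102, stood at 11.4 ± 2.06, 13.2 ± 2.54 and 11.5 ± 3.6 CPM in shNTC, shStau2 and shPum2 (SD, n = 4). The 9 had a median log2 fold change of 0.17 in shStau2 against shNTC.

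Also among the 12 most abundant names was miR-5132-3p, within Irak1 on the X chromosome. It stood at 112, 139, 101 and 112 CPM in shNTC, 128, 170, 115 and 143 in shStau2, and 121, 152, 99.1 and 166 in shPum2. The groups overlapped, with number 2 highest in shNTC and shStau2 and number 4 highest in shPum2, and it passed no test.

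With the library sets described above as a term in place of the replicate number, 0 late-numbered names passed edgeR's test in any of the 3 comparisons (0.637%, 0.00% and 0.478% of all miRNAs did). In that fit miR-3587 stood at a log2 fold change of -0.73 (adjusted p = 0.0655), miR-3556b of -0.55 (0.351), miR-3068-5p of -0.38 (0.29), miR-3588 of 0.26 (0.37) and miR-3099 of 0.21 (0.564), all from edgeR with shStau2 against shNTC. None of these 5 changed sign against the fits without the sets, while the uncalled miR-3068-3p went from -0.12 by group alone to 0.04. The second set holds no shStau2 library, so it contributed no shStau2 value.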

How the data were processed

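Small RNA counts came from 12 libraries, 4 per group. The deposited values are whole-number counts per small RNA name, 1 table per library, not normalised by the authors. Per the labels' protocols the library kit marks molecules with unique identifiers; the sources used here do not say whether molecules or reads were counted, nor with which aligner, counter and strand setting. The submitters' processing notes name the build Rnor 6.0. Intervals and limits from counts cover counting error only.

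The 120 Piwi-interacting RNA names were left out. The 685 miRNA names were scaled (TMM), filtered (filterByExpr by group, which kept 628, and 86 of the 100 late-numbered names) and fitted together over 12 libraries with edgeR 4.0.16 in R 4.3.3, by the robust quasi-likelihood test, two-sided, with Benjamini-Hochberg adjustment over 628 names and calls at an adjusted p of 0.05. The script was tested on simulated data. Nothing says which embryos a culture came from, so p-values measure only the spread between these libraries, which may be technical. The design is by group alone. Replicate numbers come from the labels: deviations of same-number libraries from their group means correlated at 0.36 to 0.571 (12 pairs), those of the 36 other pairs at -0.41 to 0.137; every same-number pair was above the limit of 0.1, so the number was also fitted as a block. DESeq2 1.42.0 was an alternative, as were other scalings, no filter, 8 libraries per comparison and leaving out libraries.

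Sequences, positions and gene bounds come from RefSeq (GRCr8), a build other than that of the counts, matched by name. Gene strand was not compared. Ratios within pairs were tested on log2 ratios by exact permutation over libraries. A pair of names combine several miR-3084 miRNAs in the authors' table. The names, lists, tests and alternatives were chosen with earlier results of these data known. Named are the 12 most abundant late-numbered miRNAs, those past the threshold with or without the block, the 3 with the smallest p per comparison, up to 6 that share a seed or hairpin with another name, and those at the edge of the naming rule. The library sets, the limit of 16 complementary nucleotides, the limit of 100 counts for pairs, and the other names singled out for zeros, complements or CAG ends were chosen after their values were seen.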

Additional observations from a re-analysis of the deposited data

Results flagged for a closer look

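In 60 groups of 4 values checked for a library far from the other 3, 3 stood out by Dixon's criterion, where chance gives about 1 in 20. In shNTC, miR-3572 stood at 8.82 CPM in replicate 3 against 6.31 to 6.62 in the others. In shStau2, miR-3596c stood at 317 CPM in replicate 1 against 369 to 378 in the others. The late-numbered share of miRNA counts in shStau2 was 1.39% in replicate 4 against 1.29 to 1.307% in the others.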

How the results depend on the processing

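With the replicate block, the count of late-numbered names called rose from 0 to 5 for shStau2 against shNTC, stayed at 0 for shPum2 against shNTC, and rose from 0 to 2 for shStau2 against shPum2. DESeq2 by group alone called 1 in shStau2 against shNTC, and so did the fit on only 8 libraries. DESeq2 with the block called 5, 0 and 2 in the same order, and the block with library totals 3, 0 and 2. Without each library in turn, and with upper-quartile factors, library totals, no filter, the library sets as a term or only names above 0 in every set, the fits by group called 0. Within the block, leaving out each number in turn gave 0 to 3 calls for shStau2 against shNTC, 0 to 6 for shStau2 against shPum2 and 0 for shPum2 against shNTC. The cause was not tested. Apart from the fits with the block and with the library sets, described above, the share of all miRNAs called is not set beside these counts. They show how the calls depend on the fit and are no result about the late-numbered names. Of 1187 values of single names under the alternatives, 36 were newly past the threshold, all with the sign of the fit by group alone. That fit called 0 late-numbered names, so no call could be lost or reversed. Another 68 values that were never called changed sign. The sets and the restriction by sets were added after seeing the data. With 51 names from 10 to under 100 counts and 24 under 10, small differences of these names are not detectable at this depth.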

Other observations

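Of the 89 late-numbered miRNAs with a position, 71 lay inside the bounds of another gene (strand not compared), and 88 had a single locus. Chromosome 6 held 14 of them and the X chromosome 12. Chromosome 6 is home of the imprinted Dlk1-Dio3 miRNA cluster, and 7 of its 14 names were complements of an older miRNA. All 7 lay between chr6:134321165 (miR-3544) and chr6:134579493 (miR-3578), a stretch that also holds miR-6331, which has no partner. The rest of the 14 lay far outside it, such as miR-3558-3p at chr6:12935330 and miR-3068-5p at chr6:112811918. The most abundant name numbered 6000 and above, miR-6216, stood at 44.7, 65.1, 28.8 and 39.2 CPM in shNTC, 53.5, 68.4, 32.8 and 40.8 in shStau2, and 37.7, 54.3, 29.9 and 46.5 in shPum2. In each group number 2 was the highest and number 3 the lowest, and the groups overlapped.

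The 2 names above their partners in mean counts were both low. The level of miR-3571 came to 75.0 to 168% of miR-1-3p over the libraries, and that of miR-3065-3p to 84.0 to 333% of miR-338-5p. On the other arm of the latter hairpin, miR-3065-5p came to 4.40 to 7.93% of miR-338-3p, an oligodendrocyte marker.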
